A study of Drosophila melanogaster with 30 samples.

Results

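Ddc, yellow-c and Gld encode proteins of cuticle formation and tanning, and their messenger RNA was followed here through leg discs that were cut, left intact or not cultured. They were chosen by gene name from the authors' lists of changed probe sets, so the rule used measured values. Ddc and yellow-c stand in the list of cut comparisons and in the list of culture comparisons, and Gld stands only in the list of cut comparisons. That makes 5 rows, with 1 probe set per gene (1639320_a_at for Ddc, 1625405_at for yellow-c and 1626984_at for Gld), out of 3556 probe sets (3149 named genes) in either list and 18952 on the array. All 3 were measured on all 30 arrays.

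Insect cuticle hardens and darkens when catecholamines are made in the epidermis, secreted and oxidised to quinones that join cuticle proteins. Dopa decarboxylase, the product of Ddc, converts dopa to dopamine, and its gene is also switched on in epidermis around wounds in Drosophila embryos. The yellow family consists of secreted proteins named after y, whose loss prevents black pigment, and yellow-c belongs to it. Gld encodes glucose dehydrogenase, a flavoenzyme of the GMC oxidoreductase family that Drosophila needs to leave the pupal case.

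The samples were prothoracic leg imaginal discs of male Drosophila melanogaster larvae aged 100 h after egg laying, in 10 groups of 3 that the titles call biological replicates. A cut divided the disc into fragments, the anterior 1/4 or the posterior 3/4, which were kept for 12 or 24 h at 25 °C in the abdomen of an adult female, and the GFP-positive region was then isolated. Control groups were the corresponding anterior and posterior regions of intact discs cultured for 12 or 24 h, and of intact discs that were not cultured (0 h). Every donor larva, controls included, was w/Y with puc[E69-I]-GAL4 over UAS-flp, and had AyGAL4 and UAS-GFP over a wild-type homologue (+). The gene puc is induced by JNK signalling. GAL4 from the puc line drives the recombinase flp, which removes a cassette from AyGAL4, so GFP marks cells that have expressed puc at some time and their descendants. Only the cut groups were isolated by GFP, so the cut and the selection of marked cells cannot be told apart. The labels do not say that the same animal gave a replicate in several groups.

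Values are centred log2 expression, so levels of different genes cannot be compared. The centring was not done once over the 30 arrays. In the deposited table every probe set has a mean of 0 within each of 3 separate sets of arrays, which the labels do not mention. The set of 15 arrays holds cut anterior regions of both times and all 3 uncut posterior groups. The set of 9 holds cut posterior regions at 24 h with uncut anterior regions at 24 h and 0 h, and the set of 6 holds cut posterior with uncut anterior regions at 12 h. The centring removed each gene's difference between the sets, whatever its source, and the authors' deposited log fold changes equal differences of these centred values. All 4 comparisons of cut with uncut tissue within a region, and 1 of the 4 culture comparisons (12 h anterior), run across sets, so for each of them the cut or culture and the set cannot be told apart. An offset of a set cancels in the mean of the anterior and posterior cut differences at 1 time, in the anterior minus posterior difference averaged over the 12 and 24 h groups, and in the other 3 culture comparisons. These comparisons, called offset-free here, were added after the data were seen and are given first. Whether the cut acted differently in the 2 regions, or at the 2 times within a region, cannot be read from these values. Between the 2 times only the means over the regions can be compared.

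Signal over background cannot be read from centred values, and the number of arrays limits the precision. Of the 5 leg disc markers only Scr, the prothoracic Hox gene, could be named on the array. Centred values do not show whether a gene is expressed, so the tissue label was not checked. In bulk tissue, fewer cells of a type and less RNA per cell cannot be told apart. The arrays of uncut 0 h anterior regions were the most variable, with array weights of 0.33 to 0.58 in limma, where an average array has 1. Differences are given with the SE of a limma fit over all 30 arrays, which does not include the uncertainty of the set offsets. Because comparisons of cut with uncut and of cultured with uncultured regions chose the genes, values of the 3 genes in them are a description without a test.

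Averaged over the regions, Ddc was 3.28-fold higher in cut than in uncut discs at 24 h, a log2 difference of 1.72 (SE 0.41, 95% interval 0.88 to 2.55). At 12 h this offset-free difference was 0.72 (95% interval -0.12 to 1.55). The regional values behind these means run across sets. At 12 h the centred values in cut anterior regions were 2.58, 1.14 and 1.16, against -1.003, -1.33 and 0.84 in uncut ones. All 3 cut samples lay above all 3 uncut samples, with 1 uncut sample close below, and the log2 difference was 2.12 (SE 0.57). In the posterior region at 12 h the cut samples had -0.026, 1.20 and 0.31 and the uncut samples 1.70, 0.97 and 0.89. The groups overlapped, with a difference of -0.69. At 24 h the values in cut posterior regions were 2.11, 1.68 and 1.82, against -1.19, -1.47 and -1.75 in uncut ones. These centred groups lay far apart, with a difference of 3.34 (SE 0.57). In the anterior region at 24 h the cut samples had -0.68, 0.97 and 0.46 and the uncut samples -0.031, -0.47 and 0.98. The groups overlapped, with a difference of 0.090. How far the contrast between 3.34 and 0.090, or between 2.12 and -0.69, belongs to the sets cannot be told apart.

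Culture without a cut went with more Ddc in 2 of the 3 comparisons that lie within a set. The uncultured posterior regions had -1.96, -1.80 and -1.03, and intact posterior regions cultured for 12 h were higher by 2.78 on the log2 scale (6.88-fold), without overlap. After 24 h the posterior difference from 0 h was 0.13. The uncultured anterior regions had -3.47, -0.75 and -1.87, and intact anterior regions cultured for 24 h were higher by 2.19 (4.56-fold), also without overlap. That difference was 1.47 without replicate 1 of the uncultured anterior group. When quantile normalization was applied again to the arrays, it was 1.43 and the 24 h posterior difference was -0.93. The 12 h anterior difference, which runs across sets, was 1.53, with overlapping samples, 0.81 without the same uncultured array and 0.67 with the repeated normalization.

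Measured from uncultured discs and averaged over the regions, Ddc was 7.32-fold higher in cut discs at 24 h, a log2 difference of 2.87 (95% interval 2.04 to 3.71) in which offsets of the sets cancel too. It shares its uncultured samples with the culture differences above. No offset-free value exists for the same comparison at 12 h.

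yellow-c was 1.91-fold higher in cut than in uncut discs at 24 h when averaged over the regions, a log2 difference of 0.93 (SE 0.21, 95% interval 0.51 to 1.36). At 12 h the same difference was 0.56 (95% interval 0.13 to 0.98). As for Ddc, the regional values run across sets. In cut anterior regions at 12 h they were 1.51, 0.95 and 0.98, against -0.14, -0.24 and -0.52 in uncut ones. The groups did not overlap and differed by 1.45 on the log2 scale (SE 0.29). In the posterior region at 12 h the cut samples had 0.42, 0.17 and 0.31 and the uncut samples 0.50, 0.55 and 0.86. All cut samples lay below all uncut samples there, by -0.34 on average. In cut posterior regions at 24 h the values were 1.22, 1.82 and 1.51, against -0.98, 0.37 and -0.95 in uncut ones. The difference was 2.03, and 2.48 without replicate 2 of the uncut group, which stood above the other uncut samples. In the anterior region at 24 h the cut samples had -0.79, -0.077 and 0.30 and the uncut samples -0.32, -0.33 and 0.60. These groups overlapped and differed by -0.17.

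Culture also went with more yellow-c. The uncultured values were -1.47, -1.40 and -1.62 in anterior and -1.25, -1.24 and -0.74 in posterior regions. Within a set, the log2 difference of intact cultured from uncultured regions was 1.72 at 12 h in the posterior region and 1.48 at 24 h in the anterior region, both without overlap. At 24 h in the posterior region it was 0.56, the groups overlapped, and it was 0.12 without replicate 2 of the 24 h group. With quantile normalization applied again these differences were 1.29, 0.88 and 0.089. The 12 h anterior difference, across sets, was 1.20, or 0.48 with that normalization. From uncultured to cut discs at 24 h the offset-free mean over the regions was 1.95 (95% interval 1.53 to 2.38).

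**Figure D1:**
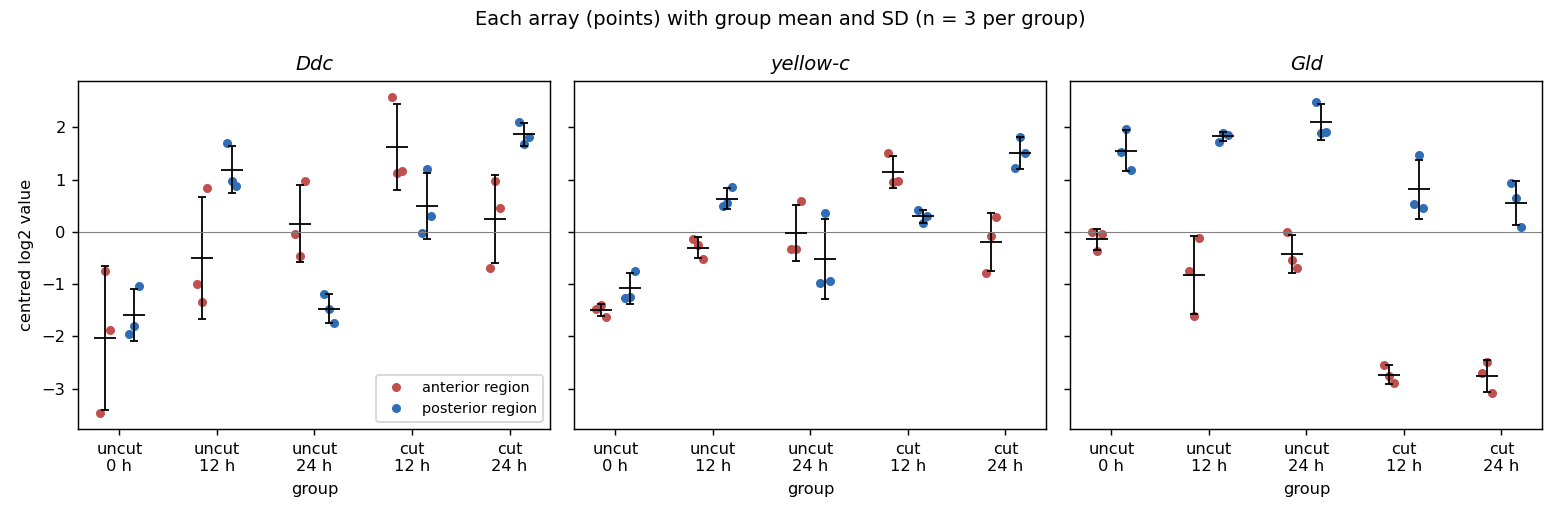
Centred log2 values of Ddc, yellow-c and Gld on each array (points; anterior red, posterior blue), with group mean and SD (black, n = 3). Each gene has a mean of 0 within each of the 3 sets of arrays, so heights compare directly only within a set; the values of Gld in cut anterior regions, -3.07 to -2.48, are the lowest shown for that gene.

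Gld was lower in cut than in uncut discs at both times. Averaged over the regions, the offset-free log2 difference was -1.46 at 12 h (SE 0.21, 2.75-fold lower, 95% interval -1.89 to -1.03) and -1.94 at 24 h (3.84-fold lower, 95% interval -2.37 to -1.51). After quantile normalization was applied again, the 12 h value was -0.57 and the 24 h value -1.95. The regional values run across sets. In anterior regions at 12 h the cut samples had -2.54, -2.76 and -2.89 and the uncut samples -0.74, -1.60 and -0.11. The difference was -1.91, and -2.30 to -1.56 when single arrays were left out, the extremes being without replicates 2 and 3 of the uncut group. In posterior regions at 12 h the cut samples had 0.54, 1.47 and 0.45 against 1.73, 1.90 and 1.85, a difference of -1.01. With the repeated normalization these differences were -1.08 and -0.055. In anterior regions at 24 h the cut samples had -2.71, -2.48 and -3.07 and the uncut samples -0.0046, -0.54 and -0.70, a difference of -2.34. In posterior regions at 24 h the cut samples had 0.93, 0.64 and 0.10 against 2.50, 1.89 and 1.91, a difference of -1.54. In none of these 4 comparisons did the centred cut and uncut samples overlap.

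Intact cultured and uncultured discs had overlapping values of Gld. Uncultured anterior regions had -0.0086, -0.37 and -0.047, and uncultured posterior regions had 1.52, 1.97 and 1.18. Within a set, the differences of intact cultured from uncultured regions were 0.27 and 0.54 in the posterior region at 12 and 24 h, and -0.27 in the anterior region at 24 h. The 12 h anterior difference, across sets, was -0.68, or -1.03 to -0.29 when single arrays were left out. The recomputed overall adjusted p of the culture comparisons was 0.210 for Gld, where the authors' deposited table lists probe sets under 0.001. The same recomputed value was 0.000168 for Ddc and 1.28e-05 for yellow-c. For the 4 cut comparisons together it was 0.000214 for Ddc, 1.25e-05 for yellow-c and 1.09e-07 for Gld. These values describe the selection, which used comparisons across sets, and support nothing.

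As the background, cut and uncut discs differed at 16.5% of the 18769 probe sets tested at 12 h and at 17.8% at 24 h in the offset-free means over the regions (limma, Benjamini-Hochberg adjusted p under 0.05). In the regional comparisons, all across sets, 8.84% (anterior) and 5.05% (posterior) passed at 12 h, and 8.62% (anterior) and 9.85% (posterior) at 24 h. The 3 cut samples did not overlap the 3 uncut ones for 27.4% and 23.5% of all probe sets at 12 h (anterior and posterior) and for 23.0% and 23.3% at 24 h. Among the 3 genes the groups did not overlap for 3, 2, 1 and 3, in the same order. Cultured and uncultured intact regions differed at 15.8% (anterior, across sets) and 20.2% (posterior) at 12 h, and at 32.1% (anterior) and 24.1% (posterior) at 24 h. Groups without overlap were found for 25.6% and 39.8% of all probe sets at 12 h and for 34.2% and 43.9% at 24 h, against 1, 2, 2 and 0 of the 3 genes. Nothing is read from these counts, since the same contrasts chose the genes. Differences of the cut difference between regions passed for 0.208% (12 h) and 0.123% (24 h) of probe sets, and between times for 2.15% (anterior) and 0.474% (posterior), all across sets.

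The difference between anterior and posterior regions was not itself used in choosing the genes, and for Gld it could be tested free of set offsets. Averaged over the 12 and 24 h groups, where offsets of the sets cancel, Gld was 8.03-fold lower in the anterior region (95% interval 6.50 to 9.93), with an adjusted p of 2.57e-13 in limma, against 5.63% of all probe sets that passed. The log2 difference was -3.01 (SE 0.15). The planned mean over all 5 treatments, which includes the 0 h groups and keeps part of the set offsets, was -2.75 (SE 0.13, adjusted p = 1.57e-13). There 5.30% of probe sets passed (2.30% higher and 3.00% lower in the anterior region), and the size for Gld was the third largest of 18769. The 15 anterior samples ran from -3.07 through a median of -0.74 to -0.0046, and the 15 posterior samples from 0.10 through a median of 1.52 to 2.50. Every anterior centred value thus lay below every posterior one, a separation found for 11 probe sets, or 0.0586%. This ordering runs across the 3 sets and includes their offsets, so it is a description only. The region differences of Gld in single treatments, all across sets, were -1.70 in uncultured discs, -2.65 and -2.52 in intact discs at 12 and 24 h, and -3.55 and -3.31 in cut discs at 12 and 24 h.

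Ddc and yellow-c showed no such region difference past the threshold. For Ddc the mean over the 5 treatments was -0.20 (95% interval -0.72 to 0.33; adjusted p = 0.775 in limma), and over the 12 and 24 h groups it was -0.14 (95% interval -0.73 to 0.45). For yellow-c these differences were -0.34 (95% interval -0.61 to -0.075; adjusted p = 0.146, unadjusted p = 0.0142 in limma) and -0.33 (95% interval -0.63 to -0.025). The second value of each gene is given without a test, because it is not independent of the culture comparisons that chose them. The first value keeps part of the set offsets, which also enter the comparisons across sets that chose the genes. Its p-value is thus not independent of the choice, and no absence of a region difference is concluded from it. In single treatments, across sets, the anterior minus posterior values of Ddc were -0.43 at 0 h, -1.68 and 1.63 in intact discs at 12 and 24 h, and 1.13 and -1.62 in cut discs at 12 and 24 h. For yellow-c the same values were -0.42, -0.94, 0.50, 0.84 and -1.71. The changes of sign between intact and cut discs lie wholly in the part of the values that cannot be told apart from the sets.

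**Figure D2:**
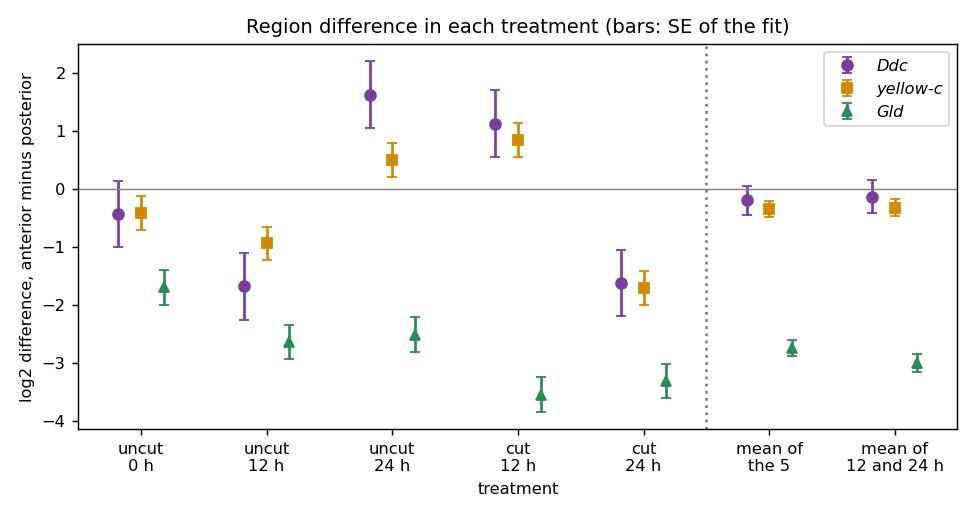
Anterior minus posterior log2 difference of Ddc (circles), yellow-c (squares) and Gld (triangles) in each treatment, as the mean of the 5 and as the mean of the 12 and 24 h groups, with the SE of the limma fit. Single treatments compare arrays of different centred sets, and the last column, in which set offsets cancel, has -0.14, -0.33 and -3.01.

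The named neural and glial markers differed in the same direction as Gld between regions and between cut and uncut discs. With culture within a set, the mean directions were the same in intact posterior regions and opposite in intact anterior regions at 24 h. Of the 5 markers on that list 3 could be named, and all 3 were lower in the anterior region over the 12 and 24 h groups: repo, the glial homeobox gene, by a log2 difference of -1.77 (adjusted p = 4.69e-10 in limma), Appl by -0.83 (adjusted p = 7.43e-06) and futsch by -0.58 (adjusted p = 0.000965). Of all probe sets, 5.63% passed for this region difference. The 3 markers had names only because the authors' filter had listed them, so nothing is read from this count. The filter's culture comparisons are not independent of this region difference, and the p-values do not allow for that. All 3 markers were also lower in cut than in uncut discs in the offset-free means. At 12 h Appl fell by 0.47, repo by 0.73 and futsch by 0.67, and at 24 h by 1.08, 1.18 and 0.90. Their mean level ran from -1.29 to 0.61 over the anterior samples and from -0.22 to 1.52 over the posterior samples. Within a set, in intact anterior regions, this mean went from -0.79 at 0 h to 0.46 at 24 h, while that of Gld went from -0.14 to -0.42. In intact posterior regions, also within a set, the marker mean was -0.051 at 0 h, 0.63 at 12 h and 1.30 at 24 h. The mean of Gld there was 1.56, 1.83 and 2.10. Cultured and uncultured samples of Gld overlapped in each of these comparisons. The part of these cells in the region and cut differences of Gld was not tested. None of the markers fixed for the anterior and posterior compartments could be named.

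Blood cell, muscle and other markers also differed between cut and uncut discs. The 4 named hemocyte markers of 7 (Hml, NimC1, eater and Sr-CI) had a mean level higher by 0.79 at 12 h and by 1.34 at 24 h in cut discs, averaged over the regions. Of these 4, all but Sr-CI passed the threshold at 12 h and all passed at 24 h. Of all probe sets, 16.5% and 17.8% passed at these times. The 4 had names only because the authors' filter had listed them, so nothing is read from this count. The mean of the 4 named myoblast and muscle markers of 6 (twi, Mef2, htl and Him) was lower, by -0.54 at 12 h and -0.31 at 24 h. Scr fell by 0.58 and 0.38. Yp1, a yolk protein gene of adult females and 1 of 3 on the host list, differed by 0.0032 at 12 h and by 0.94 at 24 h (adjusted p = 0.0518 in limma). The lamellocyte marker atilla, 1 of 5 on its list, differed by -0.21 and -0.079, and the tracheal genes serp and verm, 2 of 4, by -0.17 to 0.032, none past the threshold. With culture, within a set, atilla was higher by 2.90 to 3.84 in intact regions. Its 12 h anterior difference, across sets, was 2.78. The part of these cells in the Ddc and yellow-c results was not tested. None of the 5 markers of dopamine and serotonin neurons and none of the 7 fat body markers could be named.

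Ddc and yellow-c varied together. Across the 30 arrays Pearson's r was 0.85 and Spearman's rho 0.86, and across the 10 group means r was 0.97. Since each set has a mean of 0, these describe variation within the sets. After group means were removed r fell to 0.25, so most of the shared variation was between groups. Within the anterior samples r was 0.84 and within the posterior samples 0.88. Cut and uncut samples of a region lie in different sets, so correlations within a region include set offsets. Within each region Gld ran against both genes in these centred values. Its r with Ddc was -0.55 over anterior and -0.50 over posterior samples, and with yellow-c -0.66 and -0.59. Over all 30 arrays these correlations were weaker, at -0.24 and -0.19. All of them are descriptions across arrays that share groups.

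**Figure D3:**
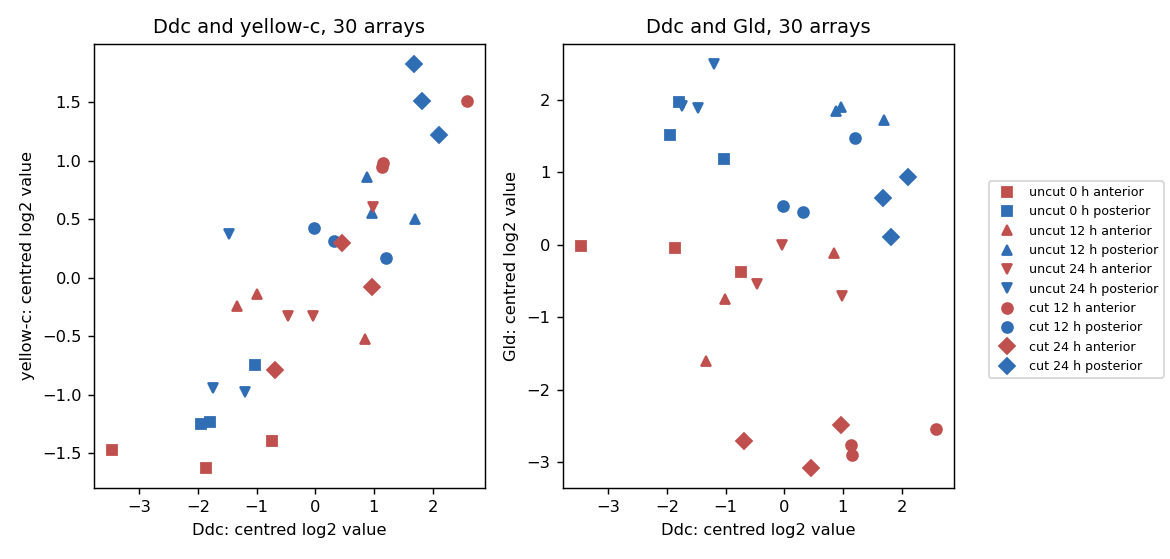
Centred log2 values of Ddc against yellow-c (left) and against Gld (right) on the 30 arrays (anterior red, posterior blue; symbols mark treatments). Ddc and yellow-c lie along 1 diagonal (r = 0.85), and against Gld the regions form separate bands, each with a negative slope. Cut and uncut arrays of a region lie in different sets, so the bands and slopes include set offsets.

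Levels can be ordered only within a set. In the set of 15 arrays the group means of Ddc were 1.63 in cut anterior regions at 12 h, 1.19 in uncut posterior regions at 12 h, 0.25 in cut anterior regions at 24 h, and -1.47 and -1.59 in uncut posterior regions at 24 h and 0 h. In the set of 9 they were 1.87 in cut posterior and 0.16 in uncut anterior regions at 24 h, and -2.03 in anterior regions at 0 h. In the set of 6 they were 0.50 in cut posterior and -0.50 in uncut anterior regions at 12 h, equal in size because the set is centred. yellow-c had the same order of groups within each set. Ddc varied much between replicates, with a residual SD of 0.79, the 53rd largest of 18769 probe sets, whose median was 0.14. yellow-c and Gld each had a residual SD of 0.40.

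The genes with centred group means most like those of Ddc were ea, a serine protease of Toll signalling (r = 0.98 over 10 group means), yellow-c (0.97), the antifungal peptide gene Drs (0.97), CG14567 (0.96) and CG10863 (0.96). For yellow-c they were Drs (0.98), CG7432 (0.98), ea (0.98), CG10863 (0.97) and Ddc (0.97). These were sought among 1479 named probe sets with a range of at least 1. For Gld they were ap, the selector gene apterous (0.98), the neprilysin gene Nep3 (0.98), the aquaporin gene Prip (0.97), CG32032 (0.97) and the nuclear receptor gene svp (0.96). Likeness here is of variation within the sets. These genes were chosen for it, so no test of them is given.

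The other genes of the tanning pathway were taken from a list of 50, of which 17 could be named, because probe sets had names only where the authors listed them. The rest, among them ple for tyrosine hydroxylase, Pu, t and AANAT1, are not analysed here. Since the named genes had passed the authors' filter, their counts are given as a share of the 50, as a minimum. Between cut and uncut discs, averaged over the regions, 9 rose and 2 fell at 12 h (22% of the list, against 16.5% of all probe sets), and 7 rose and 5 fell at 24 h (24%, against 17.8%). The median log2 difference of the 17 was 0.32 at 12 h and 0.12 at 24 h, where that of all probe sets was 0.015 and 0.0070. The 17 had been picked by the authors' filter on the cut and culture comparisons, so nothing is read from this difference in medians. In the regional comparisons across sets 8 and 3 genes passed at 12 h (anterior and posterior), and 5 and 11 at 24 h. These regional counts moved more than the offset-free ones: the 3 became 5 with array weights and 1 without replicate 3 of the uncut group, and the 5 became 9 with quantile normalization applied again and 1 without replicate 1 of the cut group.

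Upstream of dopamine, Dhpr, which regenerates the pterin cofactor of hydroxylases, rose in cut discs at 24 h by 0.80 (adjusted p = 1.97e-05 in limma, mean over the regions) and differed by 0.32 at 12 h (adjusted p = 0.0651). Downstream, e and b could be named of the 4 genes of dopamine conjugation. The gene e, whose product joins dopamine to beta-alanine, rose at 12 h by 0.69 (adjusted p = 0.00192) and differed by 0.29 at 24 h (adjusted p = 0.218). The gene b, for the decarboxylase that makes beta-alanine, rose by 0.80 (adjusted p = 0.0083) and 0.97 (adjusted p = 0.00126). In intact posterior regions cultured for 12 h, where Ddc was higher by 2.78 within a set, e rose by 0.76 (adjusted p = 0.00992) and b differed by 0.27 (adjusted p = 0.674). The laccase gene stw, which acts in the last oxidation, rose at 12 h by 0.32 (adjusted p = 0.0397) and differed by -0.10 at 24 h.

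In the yellow family, yellow-b rose in cut discs by 0.94 at 12 h (adjusted p = 6.16e-05 in limma) and by 1.19 at 24 h (adjusted p = 2.15e-06), averaged over the regions. Its centred values in cut anterior regions at 12 h were 1.07, 1.27 and 1.70 against -0.57, -0.33 and -0.22 in uncut ones, and in cut posterior regions at 24 h they were 1.32, 1.51 and 1.57 against -0.61, -0.33 and -0.10. These regional groups did not overlap. Their differences of 1.72 and 1.81, beside 0.17 at 12 h in the posterior and 0.57 at 24 h in the anterior region, run across sets.

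Other family members went different ways. yellow-g rose by 0.75 and 0.72 at 12 and 24 h, and yellow-f by 0.43 and 0.79. yellow-e rose at 12 h by 0.44 (adjusted p = 0.00169 in limma) and yellow-h fell at 24 h by 0.53 (adjusted p = 0.0107). yellow-e3 differed by -0.021 and -0.33, neither past the threshold. The gene y itself fell by 0.62 at 12 h and by 0.29 at 24 h. AyGAL4 carries a y gene in the cassette that flp removes, and its part in the value of y was not tested.

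Among the oxidases and decarboxylases, Tdc1, a tyrosine decarboxylase related to Ddc, rose in cut discs by 1.17 at 12 h (adjusted p = 0.00912 in limma) and by 1.94 at 24 h (adjusted p = 5.27e-05). Tdc2, its neuronal relative, rose by 0.53 and 0.67. Mco1, a multicopper oxidase, fell by 0.41 at 24 h (adjusted p = 0.018). The bursicon receptor gene rk, which signals tanning after the moult, fell by 1.34 at 24 h (adjusted p = 0.000244) and differed by -0.66 at 12 h (adjusted p = 0.0654).

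Both named relatives of Gld passed the threshold between cut and uncut discs at 1 time each. At each time that is 1 of the 14 other genes on the list (7.14%), below the 16.5% and 17.8% of all probe sets. The named relatives had names only because the authors' filter had listed them. CG9503, a GMC oxidoreductase, fell by 0.82 at 12 h (adjusted p = 0.0115 in limma) and differed by -0.18 at 24 h. Over the 12 and 24 h groups it was lower in the anterior region, with a log2 difference of -0.79 (adjusted p = 0.00195). CG6142 of the same family fell by 0.72 at 24 h (adjusted p = 0.0226) and differed by 0.12 at 12 h. With culture, within a set, CG6142 rose by 4.36 in anterior regions at 24 h and by 3.90 and 4.53 in posterior regions at 12 and 24 h, while CG9503 fell by 2.30, 1.71 and 1.67.

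Culture of intact discs moved part of the tanning list in both directions. Within a set, 6 list genes rose and 4 fell at 12 h in the posterior region (20%, against 20.2% of all probe sets), 5 rose and 4 fell at 24 h in the anterior region (18%, against 32.1%), and 7 rose and 4 fell at 24 h in the posterior region (22%, against 24.1%). These shares were close to or below the background. Tdc1 rose by 2.64 at 12 h in the posterior region (adjusted p = 5.19e-05 in limma). Between regions, over the 12 and 24 h groups, 1 list gene was higher in the anterior region (stw, 0.37, adjusted p = 0.00289) and 4 were lower (e, -0.39; b, -0.65; Mco1, -0.40; CG9503), which is 10% of the list against 5.63% of all probe sets.

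**Figure D4:**
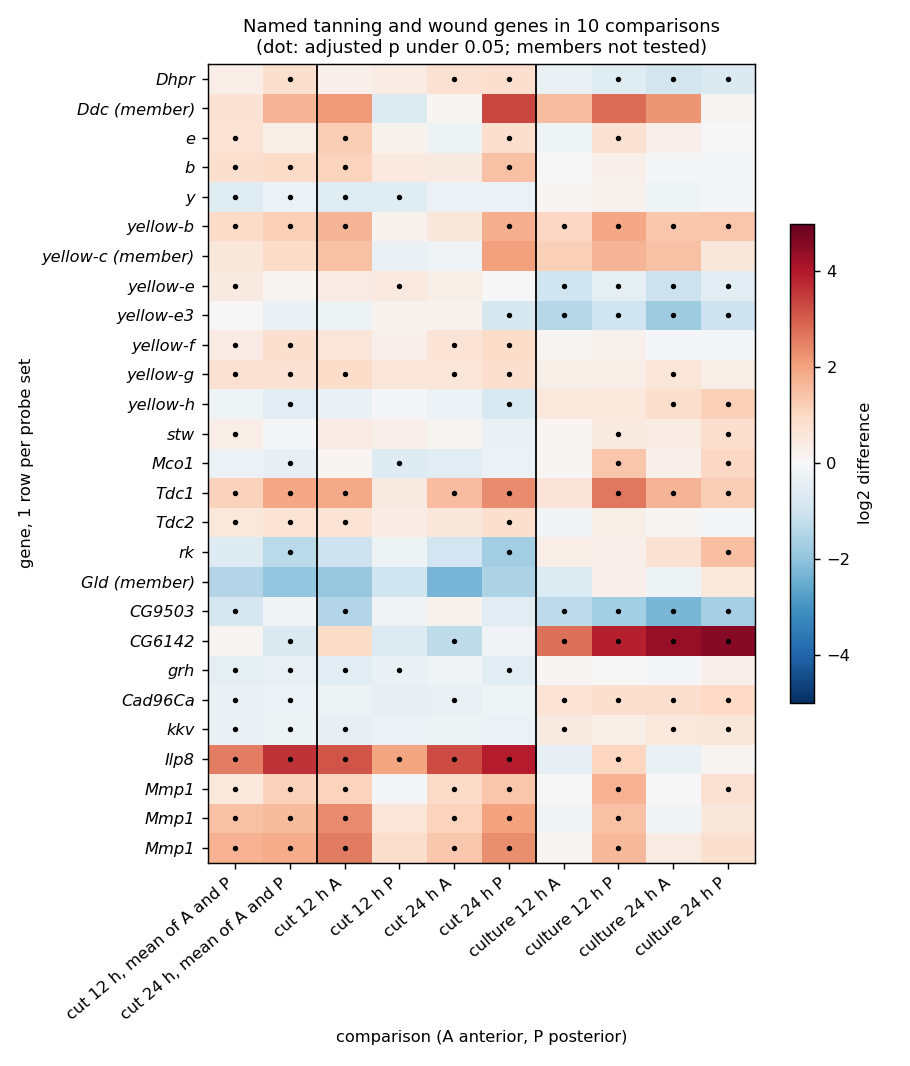
Log2 differences of the named tanning and wound genes: the offset-free cut differences at 12 and 24 h (first 2 columns), then the 4 regional cut and 4 culture comparisons (A anterior, P posterior; red higher, blue lower, 1 row per probe set; dots mark limma adjusted p under 0.05, not tested for Ddc, yellow-c and Gld). All 4 regional cut columns and culture 12 h A run across centred sets, and Gld is low in both offset-free columns, at -1.46 and -1.94.

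Of 8 genes of the epidermal wound response, 5 could be named, and all 5 passed the threshold between cut and uncut discs at both times in the means over the regions (62.5% of the list, against 16.5% and 17.8% of all probe sets). The 24 h count was 3 without replicate 1 of the cut anterior group. The 5 had names only because the authors' filter had listed them. The list was also fixed with earlier results of these data known, so nothing is read from its share. Ilp8, the relaxin-like peptide gene induced in damaged discs, rose by 2.56 at 12 h (adjusted p = 2.78e-11 in limma) and by 3.60 at 24 h (adjusted p = 1.78e-14). Mmp1, a matrix metalloproteinase gene, rose on all 3 of its probe sets, by 0.52 to 1.74 at 12 h and by 1.17 to 1.84 at 24 h. The gene grh encodes the transcription factor that binds wound enhancers, that of Ddc included, and it fell by 0.45 and 0.36. The chitin synthase gene kkv fell by 0.35 and 0.27, and the receptor kinase gene Cad96Ca by 0.32 and 0.30.

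Few genes next to the 3 on their chromosomes could be named. Ddc and yellow-c lie on arm 2L and Gld on arm 3R in the RefSeq gene table. None of the 3 genes on either side of Ddc was named. Near yellow-c, Su(H) fell in cut discs by 0.48 at 12 h (adjusted p = 0.000265 in limma) and by 0.40 at 24 h (adjusted p = 0.00135), and ck differed by 0.11 and 0.16 without passing the threshold. Near Gld, Syt4 fell by 0.83 at 12 h (adjusted p = 0.00777) and by 1.03 at 24 h (adjusted p = 0.000947). It was lower in the anterior region by a log2 difference of -1.04 (adjusted p = 3.75e-05), as Gld was. In the gene table CG10561 overlaps Ddc, CIAPIN1 overlaps yellow-c and lncRNA:CR44338 overlaps Gld, and whether the probe sets read these genes too was not tested.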

How the data were processed

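Biotin-labelled cRNA, amplified in 2 cycles, was hybridised to Affymetrix arrays, per the labels' protocols. The submitters' processing notes name RMA and limma, without versions; the array's annotation build is not given in the sources used here. The deposited value table holds log2 values of 18952 probe sets on 30 arrays, centred per probe set. A singular value decomposition showed that the centring was done separately in 3 sets of 15, 9 and 6 arrays (means within 8.2e-09 of 0 in each); how and why is not given in the sources used here. The base is not written and was taken as 2. The authors' deposited tables give log fold changes, read as log2, and an overall adjusted p-value for 1480 and 3018 probe sets. Differences of group means in the value table equalled those log fold changes within 1.6e-08.

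After 183 control probe sets were left out, 10 group means were fitted to 18769 probe sets with limma 3.58.1 in R 4.3.3 (lmFit and eBayes, 20 residual and 5.26 prior degrees of freedom), with Benjamini-Hochberg adjustment within each comparison and a threshold of 0.05. The fit was also run on simulated independent noise, with known differences added to the cut 24 h posterior group. Those data had no separately centred sets, so that run cannot show how set offsets affect the results. Probe sets were named only through the deposited tables, with symbols updated from the RefSeq Release 6 plus ISO1 MT gene table. Of 3556 probe sets 2557 matched a symbol, 692 a synonym, 44 kept the file's name and 263 had none.

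The 3 genes, the lists and the tests were chosen with earlier results of these data known. Named were the 3 genes, the tanning backbone, the 3 largest passing differences of each list, the 5 most alike genes and the 3 neighbours on each side. The other list genes that passed are named besides, chosen after their values were seen. The planned choice of the probe set with the highest mean could not be made on centred values, so a gene with several probe sets counted only if all passed in 1 direction. Replicate numbers did not pair samples: deviations from group means of same-numbered samples had a mean r of 0.025 (-0.30 to 0.32), against -0.012 for other numbers. No 2 replicates had identical values. P-values measure the spread among the 3 samples of each group. The comparisons in which set offsets cancel were added after seeing the data. The planned comparisons that run across sets were kept, and no fit with the set as a term can estimate them, since each group lies in 1 set. Alternatives were a replicate block, quantile normalization applied again, array weights, leaving out each array, the authors' log fold changes and, chosen after seeing the data, leaving out the 0 h groups.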

Additional observations from a re-analysis of the deposited data

Results flagged for a closer look

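All values here compare cut differences between regions or between times. Each is made of arrays from differently centred sets, so the difference and the set cannot be told apart, and the p-values do not cover set offsets. yellow-c was higher in cut than in uncut anterior regions at 12 h and lower in posterior regions, without overlap in either, and the anterior difference exceeded the posterior one by 1.79 on the log2 scale. In the posterior region the cut difference of yellow-c was larger at 24 h than at 12 h by 2.37, and all samples moved in opposite directions at the 2 times. These 2 differences were not tested, since the contrasts chose the gene.

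The remaining values passed limma's test of the difference (Benjamini-Hochberg over 18769 probe sets). In the anterior region the cut difference at 24 h minus that at 12 h was -2.18 for CG6142 (adjusted p = 0.00776), -1.47 for e (adjusted p = 0.00827) and -1.15 for yellow-b (adjusted p = 0.0376). In the posterior region it was 1.96 for Ilp8 (adjusted p = 0.00573), 1.64 for yellow-b (adjusted p = 0.008) and -1.01 for yellow-e3 (adjusted p = 0.0458). At 12 h the cut difference of yellow-b was larger in the anterior region by 1.55 (adjusted p = 0.0257). Of all probe sets, 2.15%, 0.474% and 0.208% passed these 3 tests.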

How the results depend on the processing

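The centring in 3 sets is the main limit: offset-free values stand beside those across sets in the results, and the regional cut differences cannot be freed of it. The region differences of the 3 genes kept their direction and their side of the threshold in every alternative run. For Gld the difference was -2.82 to -2.67 when single arrays were left out and -3.01 without the 0 h groups. With the replicate numbers as a block it was -2.75 (adjusted p = 6.37e-13 in limma), and of 72 recomputed values the block moved 1, the wound genes with a region difference over the 12 and 24 h groups, from 1 to 0 (0 to 1 when single arrays were left out). When quantile normalization was applied again, differences of cultured from uncultured regions moved for Ddc to 0.67 (12 h anterior), 1.43 (24 h anterior) and -0.93 (24 h posterior, a change of sign). For yellow-c they moved to 0.48 (anterior) and 1.29 (posterior) at 12 h and to 0.88 (anterior) and 0.089 (posterior) at 24 h, and the cut differences of Gld at 12 h to -1.08 (anterior) and -0.055 (posterior), with -0.57 as the mean over the regions. Counts then moved to 9 tanning genes at 24 h between cut and uncut anterior regions, to 2180 probe sets at 12 h between cut and uncut posterior regions and, with culture, to 1910 (12 h anterior) and 3455 (24 h anterior). The wound list had 0 genes with a region difference in limma (1 at an unadjusted p under 0.05), and 1 with this normalization or without the 0 h groups. With array weights 5 tanning and 4 wound genes passed at 12 h between cut and uncut posterior regions, and 1 wound gene at 12 h with culture in the anterior region. Probe sets passing with weights were 2589 (cut 12 h posterior), 4653 (cut 12 h, mean over the regions) and, with culture, 1866 (12 h anterior), 5823 (12 h posterior) and 3962 (24 h anterior). Leaving out single arrays gave 0.81 to 2.18 and 1.47 to 2.83 for Ddc with culture in the anterior region at 12 and 24 h. It gave 1.80 to 2.48 for yellow-c in cut posterior regions at 24 h and 0.12 to 0.79 with culture there. For Gld it gave -2.30 to -1.56 in cut anterior regions at 12 h and -1.03 to -0.29 with culture there. Tanning genes passing ranged over 1 to 4 (cut 12 h posterior) and 1 to 7 (cut 24 h anterior), and wound genes over 1 to 3 in both and 1 to 2 (culture 12 h anterior). Probe sets passing between cut and uncut regions ranged over 839 to 1873 (12 h anterior), 393 to 1098 (12 h posterior), 836 to 1824 (24 h anterior) and 1055 to 2131 (24 h posterior), against 1660, 947, 1618 and 1848 with all arrays. The filter on dim probe sets was not run, because the values are centred. The cause of these shifts was not tested. Signal over background is unknown, so values near the detection limit cannot be marked.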
